A study of Mus musculus with 9 samples.

Results

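A set of 10 genes of the MHC class I pathway was read from the count table of 66cl4 cells, which derive from a mouse mammary tumour and are labelled as triple-negative breast cancer. They were taken by symbol from 52208 genes in the table: the heavy chains H2-K1 and H2-D1, the light chain B2m, the peptide transport and loading genes Tap1, Tap2 and Tapbp, the immunoproteasome subunits Psmb8, Psmb9 and Psmb10, and the transactivator Nlrc5. Messenger RNA was sequenced in 9 libraries, 3 biological replicates in each of 3 groups. Add-back cells carried a short hairpin RNA against Eya3 together with IKK2-SE, an active form of the NF-kB-activating kinase IKK2. Knockdown cells carried the Eya3 hairpin with an empty vector, and scramble cells a non-targeting hairpin with the empty vector. All 3 groups were therefore kept under puromycin for a hairpin and selected on mCherry for a vector. Both groups with reduced Eya3 carried 1 hairpin, and no group combined the scramble hairpin with IKK2-SE. The labels do not say whether replicates were separate transductions, and the p-values below therefore describe only how these cultures vary.

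Class I molecules show peptides of the cell's own proteins to CD8 T cells. The proteasome cuts the proteins, the TAP transporter carries peptides into the endoplasmic reticulum, and tapasin (Tapbp) holds the empty heavy chain and light chain beside the transporter until a peptide binds. Interferon-gamma and NF-kB signalling are known to raise these genes, and the immune subunits Psmb8, Psmb9 and Psmb10 then replace the constitutive subunits Psmb5, Psmb6 and Psmb7 in new proteasomes.

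Library totals ran from 63601403 to 81534534 counts. Eya3, the target of the hairpin, averaged 26.6 CPM in add-back cells, 24.97 CPM in knockdown cells and 62.7 CPM in scramble cells (CPM, TMM-scaled). Its fall of 1.33 ± 0.06 (log2, SE) in knockdown against scramble cells passed the test (edgeR adjusted p = 5.97e-12). Ikbkb, the gene of IKK2, averaged 48.6 CPM in add-back, 44.3 CPM in knockdown and 47.8 CPM in scramble cells. Its add-back and scramble libraries overlapped, so these counts do not show the IKK2-SE construct, which is known here from the labels only. Of the 7 epithelial markers, Krt8 carried nearly all counts, with a mean of 1073 CPM in add-back, 1329 CPM in knockdown and 628 CPM in scramble cells, and it rose by 1.08 ± 0.05 in knockdown against scramble cells (edgeR adjusted p = 8.08e-12). Epcam, Cdh1 and Krt18 stayed under 1 CPM in every library. Krt14 (0.120 CPM in add-back, 0.305 CPM in knockdown and 1.24 CPM in scramble cells) and Krt19 (0.028 CPM in add-back, 0.060 CPM in knockdown and 0.606 CPM in scramble cells) fell in knockdown against scramble cells by edgeR. Krt5 (0.129 CPM in add-back, 0.32 CPM in knockdown and 0.045 CPM in scramble cells) rose by 2.76 ± 0.65 in that comparison (edgeR adjusted p = 0.00168), and Krt18 did not pass (0.461). The 5 mesenchymal markers summed to between 2627 and 2855 CPM in add-back, 3704 and 4112 CPM in knockdown and 2554 and 2995 CPM in scramble libraries, mostly from Vim. Among them Col3a1 had no counts in any scramble library and averaged 11.99 CPM in add-back and 13.4 CPM in knockdown cells. Pdgfrb averaged 10.7 CPM in add-back, 7.08 CPM in knockdown and 1.24 CPM in scramble cells. Col1a1 averaged 1.52 CPM in add-back, 2.6 CPM in knockdown and 3.96 CPM in scramble cells, and Pdgfra 42.7, 39.8 and 47.9 CPM. Of the 5 mesenchymal markers, 3 rose and 2 fell in knockdown against scramble cells by edgeR, where 27.7% of all tested genes rose and 29.9% fell. Of 3 receptors low in triple-negative tumours, Pgr had no counts. Esr1 averaged 20.05 CPM in add-back, 16.45 CPM in knockdown and 11.8 CPM in scramble cells, and Erbb2 63.8, 63.5 and 55.4 CPM. Both rose in knockdown against scramble cells (edgeR adjusted p = 2.41e-05 and 0.00173). The part of these differences in the results below was not tested. Summed leukocyte markers reached 21.8 CPM in add-back, 18.2 CPM in knockdown and 18.8 CPM in scramble libraries, and 9 of the 10 were under 1 CPM in every library of each group. Lyz2 carried nearly all of the sum, with 20.1 CPM in add-back, 16.5 CPM in knockdown and 17.1 CPM in scramble cells. It rose in add-back against knockdown cells by 0.29 ± 0.08 (edgeR adjusted p = 0.023) and against scramble cells by 0.24 ± 0.08 (0.0143). The line is known to come from a mouse of another MHC haplotype than the mm10 reference strain. Reads of the polymorphic class I heavy chains may therefore be lost or shared among near-identical genes, and levels of H2-K1, H2-D1 and the H2-Q and H2-T genes are uncertain in that respect.

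A few upstream regions are shown because the results below turn on these genes, and because H2-K1 and H2-D1, and Psmb9 and Tap1, have like or shared upstream sequence. They are RefSeq windows on GRCm38.p6, printed 5′ to 3′ on the gene's strand and ending just before the RefSeq start. H2-K1 lies at chr17:34000348-34000597 (minus strand), H2-D1 at chr17:35262844-35263093 (plus), B2m at chr2:122147437-122147686 (plus) and Psmb8 at chr17:34197945-34198194 (plus), each 250 bases long. The 225 bases between the diverging RefSeq starts of Psmb9 and Tap1 lie at chr17:34187331-34187555 and are printed on the strand of Tap1. The gene spans given further below come from GENCODE, whose starts differ from those of RefSeq. By these spans, the H2-D1, Psmb8 and Tapbp windows lie inside their own genes and the Psmb9-Tap1 stretch lies inside Psmb9. These windows are upstream only of the RefSeq starts. Capitals mark matches, on either strand, to 4 patterns: kappaB (GGGA and CC with any 4 bases between), ISRE, the interferon-stimulated response element (GAAA and GAAA with any 2 bases between), GAS, the gamma-activated site (TTC and GAA with any 3 bases between), and the CCAAT box.
H2-K1: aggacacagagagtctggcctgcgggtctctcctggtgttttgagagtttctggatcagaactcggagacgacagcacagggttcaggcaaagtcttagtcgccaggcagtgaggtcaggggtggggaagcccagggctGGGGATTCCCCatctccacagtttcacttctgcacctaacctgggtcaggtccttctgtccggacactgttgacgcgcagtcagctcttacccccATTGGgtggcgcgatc
H2-D1: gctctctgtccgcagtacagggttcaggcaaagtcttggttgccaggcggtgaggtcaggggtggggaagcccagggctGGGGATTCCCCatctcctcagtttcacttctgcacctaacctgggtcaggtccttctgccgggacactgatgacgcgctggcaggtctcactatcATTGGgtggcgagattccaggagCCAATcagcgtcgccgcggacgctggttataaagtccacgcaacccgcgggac
B2m: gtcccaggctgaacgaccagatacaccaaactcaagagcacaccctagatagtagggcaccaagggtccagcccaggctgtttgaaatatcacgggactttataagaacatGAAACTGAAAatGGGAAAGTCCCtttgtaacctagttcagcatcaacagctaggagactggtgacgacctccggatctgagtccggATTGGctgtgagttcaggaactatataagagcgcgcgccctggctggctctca
Psmb9-Tap1 shared: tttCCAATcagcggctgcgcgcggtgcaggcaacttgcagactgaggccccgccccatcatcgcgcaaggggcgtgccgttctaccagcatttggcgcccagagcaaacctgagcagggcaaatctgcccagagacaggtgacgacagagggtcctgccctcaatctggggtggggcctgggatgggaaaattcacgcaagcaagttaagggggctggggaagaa
Psmb8: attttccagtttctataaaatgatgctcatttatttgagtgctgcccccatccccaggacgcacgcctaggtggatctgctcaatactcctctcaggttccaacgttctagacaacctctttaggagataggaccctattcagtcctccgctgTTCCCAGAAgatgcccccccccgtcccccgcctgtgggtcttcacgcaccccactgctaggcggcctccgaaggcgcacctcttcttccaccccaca

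H2-K1 and H2-D1 held the same 11-base run of capitals, in which the kappaB pattern matches on both strands with overlap. It lay at bases -111 to -101 from the start of H2-K1 and -171 to -161 from that of H2-D1. B2m held the kappaB pattern at bases -127 to -117, on both strands and overlapping, and the ISRE pattern at -139 to -130. Psmb8 held the GAS pattern at -97 to -89, and the stretch shared by Psmb9 and Tap1 held a CCAAT box. Of 32851 upstream windows of the same length in the table, 17.6% held the kappaB pattern, 2.98% the ISRE pattern, 7.02% the GAS pattern and 33.8% a CCAAT box. Of the 10 members, 8 were matched in the sequence table. Tapbp held CCAAT boxes and Psmb10 held none of the 4 patterns in its window. A match describes the letters and is not a measured binding site.

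In knockdown against scramble cells, 7 of the 9 tested members fell and none rose, with Psmb8 nearly lost and the others down by less than a factor of 2. A gene was called at an edgeR adjusted p under 0.05, and 57.5% of all tested genes were called in this comparison (29.9% lower and 27.7% higher), so most genes of any kind moved. The median log2 fold change was -0.50 over the tested members and -0.001 over all tested genes. In add-back against knockdown cells, 5 of the 9 rose and none fell, against 10.4% of all tested genes called (5.61% higher and 4.82% lower), with medians of 0.22 and 0.001. In add-back against scramble cells, 1 member rose, 4 fell and 4 did not pass, against 55.8% of all tested genes called (27% higher and 28.7% lower), with medians of -0.070 and -0.002. DESeq2 and limma voom gave the same counts of members in each direction. At an unadjusted edgeR p under 0.05, no member was higher in knockdown against scramble cells, and 1, Psmb8, was lower in add-back against knockdown cells. The comparisons share libraries and are not independent of each other. Nlrc5 had too few counts to be tested.

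**Figure D1:**
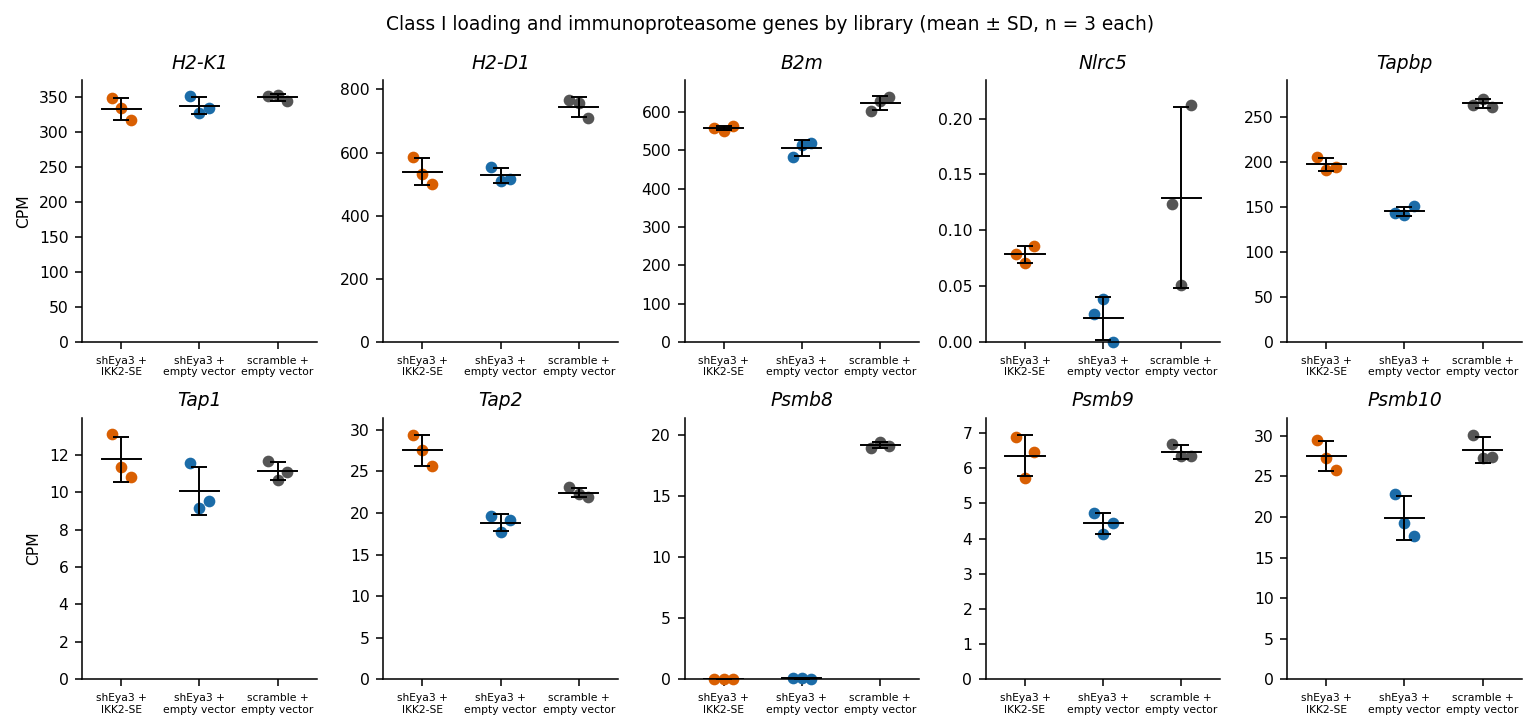
Library-scaled counts (CPM, linear axes that start at 0 and differ between panels) of the 10 members in the 3 add-back, 3 knockdown and 3 scramble libraries. Points are libraries, and the bar and whiskers are the mean and SD; Psmb8 stands near 0 in add-back and knockdown libraries and near 19.2 CPM in scramble libraries.

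Per kilobase of annotated exon, the members spanned a wide range. In scramble cells B2m led with 725 CPM per kb, followed by H2-D1 with 288, H2-K1 with 119 and Tapbp with 73.0 CPM per kb. Psmb10 followed at 16.6 ± 0.93, Tap2 at 5.93 ± 0.15, Psmb8 at 5.67 ± 0.07, Tap1 at 2.03 ± 0.09 and Psmb9 at 1.77 ± 0.05 CPM per kb (SD, n = 3), and Nlrc5 was last at 0.015 CPM per kb. Neighbours in this order lay further apart than their summed SDs. In knockdown cells Psmb8 stood at 0.023 CPM per kb, below Psmb9 at 1.21 CPM per kb, while the other tested members kept their order. The transporter genes and Psmb9 stood far below the heavy and light chains per length in all 3 groups. These lengths join all annotated exons, so a gene with long rare isoforms reads low.

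The heavy chains were compared first, since both present peptides and carry the same kappaB run. H2-D1 (chromosome 17, 35262730 to 35267499, plus strand, GRCm38/mm10) was at 586, 532 and 500.1 CPM in add-back libraries, 554, 511 and 517 CPM in knockdown libraries and 768, 756 and 708 CPM in scramble libraries. Every scramble library lay above every library with the Eya3 hairpin, and the add-back and knockdown libraries overlapped. H2-D1 fell by 0.50 ± 0.05 in knockdown cells against scramble cells (edgeR adjusted p = 5.78e-07). The fall in add-back against scramble cells was 0.46 ± 0.05 (edgeR adjusted p = 1.38e-06). The difference of 0.032 ± 0.05 in add-back against knockdown cells did not pass (edgeR adjusted p = 0.805).

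H2-K1 (chromosome 17, 33996017 to 34000347, minus strand) was at 349, 334 and 318 CPM in add-back libraries, 351, 328 and 334 CPM in knockdown libraries and 352, 353 and 345 CPM in scramble libraries. The 3 groups overlapped. Its log2 difference was -0.051 ± 0.04 in knockdown against scramble cells (edgeR adjusted p = 0.300), -0.070 ± 0.04 in add-back against scramble cells (0.159) and -0.0185 in add-back against knockdown cells (0.861). With library totals as the only scaling, the knockdown difference was -0.10 and passed (edgeR adjusted p = 0.0411). With the replicate number as a block, the add-back difference against scramble cells passed (edgeR adjusted p = 0.0416). The ratio of H2-K1 to H2-D1 within a library, per exon length, was 0.523, 0.551 and 0.558 in add-back libraries, 0.557, 0.564 and 0.567 in knockdown libraries and 0.403, 0.410 and 0.427 in scramble libraries. The ratio was higher in every knockdown library than in every scramble library, by 0.44 on the log2 scale. An exact two-sided permutation test gave p = 0.1, the smallest that 3 libraries against 3 allow (0.15 adjusted over 15 ratio tests), so the 2 heavy chains could not be shown by this test to move unequally.

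B2m (chromosome 2, 122147686 to 122153083, plus strand), the light chain shared by all classical class I molecules, was at 558, 551 and 562 CPM in add-back libraries, 481, 515 and 519 CPM in knockdown libraries and 603, 628 and 639 CPM in scramble libraries. The 3 groups did not overlap, and the add-back libraries stood between the others. B2m fell by 0.30 ± 0.04 in knockdown against scramble cells (edgeR adjusted p = 3.85e-06) and by 0.16 ± 0.04 in add-back against scramble cells (edgeR adjusted p = 0.00176). In add-back against knockdown cells it rose by 0.14 ± 0.04 (edgeR adjusted p = 0.0263). That last call was lost without add-back replicate 1 (edgeR adjusted p = 0.057), without add-back replicate 3 (0.0774) and without knockdown replicate 1 (0.104). The alternatives gave adjusted p between 0.000933 and 0.104.

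Of the peptide transport and loading genes, Tapbp and Tap2 were called in all 3 comparisons and Tap1 in none, with group as the only term in the fit. Tapbp (chromosome 17, 33915899 to 33929292, plus strand) was at 205, 191 and 195 CPM in add-back libraries, 143, 141 and 151 CPM in knockdown libraries and 263, 270.2 and 261 CPM in scramble libraries. The groups did not overlap, with add-back cells in the middle. Tapbp fell by 0.87 ± 0.04 in knockdown against scramble cells (edgeR adjusted p = 1.52e-11), rose by 0.44 ± 0.04 in add-back against knockdown cells (1.17e-06) and fell by 0.43 ± 0.04 in add-back against scramble cells (9.81e-08). Zbtb22, a zinc finger gene that lies inside the annotated span of Tapbp on the same strand, averaged 85.7 CPM in add-back, 85.2 CPM in knockdown and 45.8 CPM in scramble cells, opposite to Tapbp between knockdown and scramble cells.

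Tap2 (chromosome 17, 34203527 to 34216321, plus strand), one of the paired subunits of the peptide transporter, was at 29.4, 27.5 and 25.7 CPM in add-back libraries, 19.6, 17.7 and 19.2 CPM in knockdown libraries and 23.1, 22.3 and 21.97 CPM in scramble libraries. The add-back libraries were the highest and the groups did not overlap. Tap2 fell by 0.25 ± 0.06 in knockdown against scramble cells (edgeR adjusted p = 0.00223) and rose by 0.55 ± 0.06 in add-back against knockdown cells (1.43e-05). In add-back against scramble cells it rose by 0.30 ± 0.06 (edgeR adjusted p = 0.000542), the one member called higher in this comparison.

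Tap1 (chromosome 17, 34187553 to 34197225, plus strand), the other transporter subunit, was at 13.1, 11.4 and 10.8 CPM in add-back libraries, 11.5, 9.15 and 9.52 CPM in knockdown libraries and 11.7, 10.7 and 11.1 CPM in scramble libraries. The groups overlapped. Its log2 difference was -0.14 ± 0.09 in knockdown against scramble cells (edgeR adjusted p = 0.219), 0.22 ± 0.09 in add-back against knockdown cells (0.171) and 0.081 ± 0.09 in add-back against scramble cells (0.497). Knockdown replicate 1 was the highest of its group, and without it the first difference became -0.25 and passed (edgeR adjusted p = 0.0315), as did the second at 0.34 (0.0328). The ratio of Tap1 to Tap2 per exon length was 0.308, 0.285 and 0.290 in add-back libraries, 0.406, 0.357 and 0.343 in knockdown libraries and 0.349, 0.331 and 0.347 in scramble libraries. Every add-back library had the lower ratio, by 0.32 (log2) against knockdown and 0.22 against scramble cells, each with an exact two-sided permutation p = 0.1 (0.15 adjusted over the 15 ratio tests), the smallest possible.

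**Figure D2:**
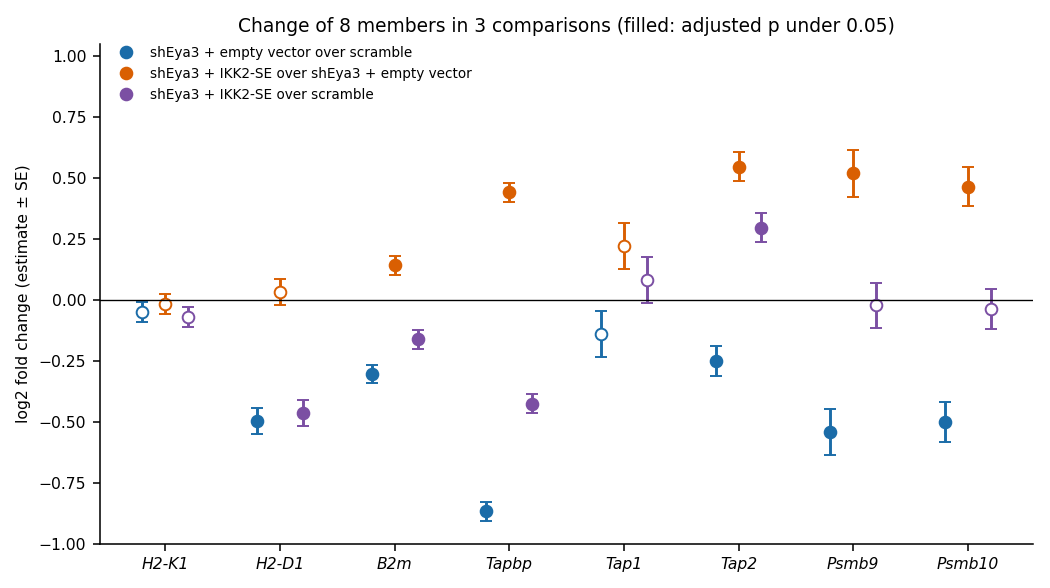
Log2 fold change (edgeR estimate, bars ± SE) of 8 tested members in the 3 comparisons, filled where the adjusted p is under 0.05; Psmb8 is left out for scale. Tapbp lies lowest at -0.87 in knockdown against scramble cells and Tap2 highest at 0.55 in add-back against knockdown cells. H2-K1 and Tap1 are open in all 3.

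Psmb8 (chromosome 17, 34197721 to 34201454, plus strand), the immune subunit that takes the place of Psmb5, was the member with the largest change. It was read 0, 4 and 1 times in add-back libraries, 6, 10 and 2 times in knockdown libraries and 1225, 1517 and 1439 times in scramble libraries. The scramble libraries thus stood apart at 19.0, 19.4 and 19.1 CPM, and every other library was at or below 0.127 CPM. Summed over a group and scaled, knockdown cells were 257-fold lower than scramble cells (95% interval 163 to 435, 18 against 4181 counts) and add-back cells 842-fold lower (361 to 2600, 5 against 4181 counts). These intervals cover counting error only. The fitted changes were -7.93 ± 0.21 (edgeR adjusted p = 1.8e-14) and -9.60 ± 0.25 (edgeR adjusted p = 1.93e-14). Between add-back and knockdown cells the ratio was 0.306 (0.0887 to 0.854), with overlapping libraries, and the test did not pass (edgeR adjusted p = 0.194).

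Psmb8 lies between Tap1 and Tap2, and these neighbours changed by 0.25 or less on the log2 scale in knockdown against scramble cells. Of the 6 nearest tested genes on each side, Psmb9, Tap2 and H2-DMa (which helps load class II molecules) fell in knockdown against scramble cells, H2-DMa by 0.30 ± 0.12 (edgeR adjusted p = 0.0383). The H2-DMa call was lost in 5 of the 9 fits that left out 1 library, knockdown replicate 1, 2 or 3 or scramble replicate 1 or 3 (edgeR adjusted p from 0.0577 to 0.111). Notch4, a Notch receptor, fell by 2.30 ± 0.17 (edgeR adjusted p = 6.03e-08), and averaged 2.74 CPM in add-back, 3.09 CPM in knockdown and 15.2 CPM in scramble cells. The pseudogene Btnl7-ps averaged 0.901 CPM in add-back, 0.441 CPM in knockdown and 1.33 CPM in scramble cells and fell by 1.58 ± 0.28 (edgeR adjusted p = 0.000119). Brd2, Tap1, H2-DMb1, H2-DMb2, H2-Ab1, H2-Eb1 and Gm15821 did not pass, and the H2-DMb, H2-Ab1 and H2-Eb1 levels were under 1 CPM. The median log2 fold change was -0.013 over the 40 nearest tested genes around Psmb8 and -0.26 over the 20 nearest. The antisense gene Gm20496 overlaps Psmb8 and averaged 0.066 CPM in add-back, 0.034 CPM in knockdown and 0.150 CPM in scramble cells.

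**Figure D3:**
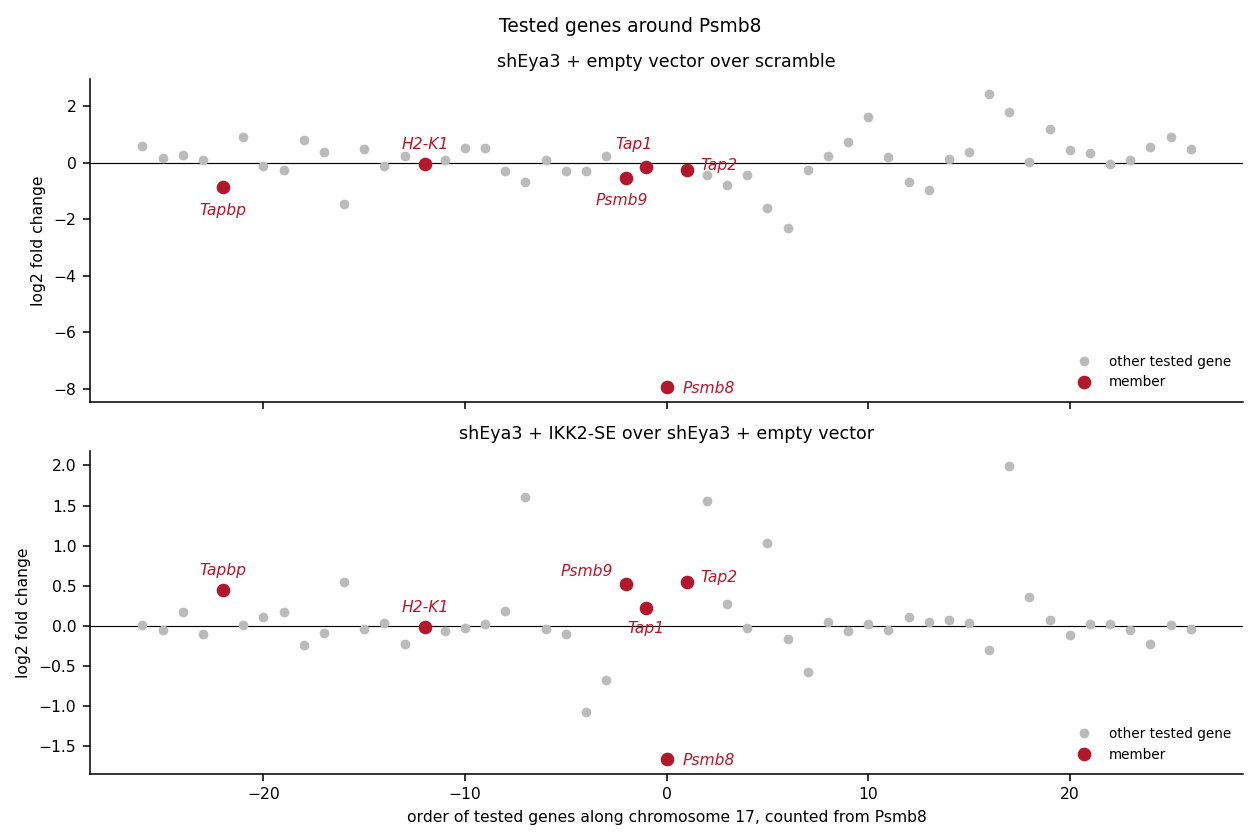
Log2 fold change of tested genes along chromosome 17 in gene order from Psmb8, with members in red and other genes in grey; the vertical scales of the panels differ. Psmb8 alone lies near -8 in knockdown against scramble cells, between Tap1 at -0.14 and Tap2 at -0.25.

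The summed endothelial markers, like Psmb8, were highest in scramble libraries. The sum of Pecam1, Cdh5 and Kdr was between 0.594 and 0.871 CPM in add-back, 0.199 and 0.395 CPM in knockdown and 4.26 and 5.00 CPM in scramble libraries. Cdh5 made up most of it, while Pecam1 and Kdr were under 1 CPM in every library and overlapped between add-back and scramble libraries. Fewer cells of a type and less RNA per cell cannot be told apart in these bulk libraries, and the part of other cells in the Psmb8 result was not tested.

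Psmb9 and Psmb10 were lowest in knockdown cells and moved by less than Psmb8. Psmb9 (chromosome 17, 34181987 to 34187764, minus strand), the immune counterpart of Psmb6, was at 6.87, 5.72 and 6.47 CPM in add-back libraries, 4.73, 4.14 and 4.44 CPM in knockdown libraries and 6.70, 6.35 and 6.35 CPM in scramble libraries. Knockdown libraries were the lowest without overlap, and add-back and scramble libraries overlapped. Psmb9 fell by 0.54 ± 0.10 in knockdown against scramble cells (edgeR adjusted p = 0.00013), rose by 0.52 ± 0.10 in add-back against knockdown cells (0.00176) and differed by -0.023 ± 0.09 in add-back against scramble cells (0.856). In GENCODE, whose starts differ from those of RefSeq, Psmb9 and Tap1 overlap by 212 bases at their diverging starts.

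Psmb10 (chromosome 8, 105935735 to 105938444, minus strand), the immune counterpart of Psmb7, lies outside the MHC. It was at 29.4, 27.3 and 25.8 CPM in add-back libraries, 22.9, 19.2 and 17.6 CPM in knockdown libraries and 30.1, 27.3 and 27.3 CPM in scramble libraries. As for Psmb9, knockdown libraries were the lowest and the other groups overlapped. Psmb10 fell by 0.50 ± 0.08 in knockdown against scramble cells (edgeR adjusted p = 6.34e-05), rose by 0.46 ± 0.08 in add-back against knockdown cells (0.00128) and differed by -0.037 ± 0.08 in add-back against scramble cells (0.725).

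The constitutive partners moved little. Psmb5 averaged 31.6 CPM in add-back, 30.8 CPM in knockdown and 36.0 CPM in scramble cells, and fell by 0.22 ± 0.07 in knockdown against scramble cells (edgeR adjusted p = 0.0100). Psmb7 averaged 109.6 CPM in add-back, 114 CPM in knockdown and 125 CPM in scramble cells and fell by 0.13 ± 0.04 in the same comparison (edgeR adjusted p = 0.00689), and Psmb6 at 166 CPM in add-back, 165 CPM in knockdown and 159.7 CPM in scramble cells did not pass (0.390). The Psmb5 call was lost without knockdown replicate 3 (edgeR adjusted p = 0.0605) or scramble replicate 2 (0.0658), and the Psmb7 call without scramble replicate 2 (0.0513). In add-back against knockdown cells none of the 3 passed (edgeR adjusted p from 0.400 to 0.974).

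Set against these partners per exon length, the immune subunits differed by subunit. Psmb8 stood at 0.134, 0.136 and 0.156 of Psmb5 in scramble libraries and at or below 0.00113 in every add-back and knockdown library. The Psmb10 to Psmb7 ratio was 0.547, 0.512 and 0.454 in add-back libraries, 0.395, 0.338 and 0.315 in knockdown libraries and 0.476, 0.428 and 0.453 in scramble libraries. The Psmb9 to Psmb6 ratio was between 0.0180 and 0.0218 in add-back, 0.0125 and 0.0153 in knockdown and 0.0191 and 0.0227 in scramble libraries. For both the knockdown libraries were lowest without overlap. In knockdown against scramble cells the log2 ratio differences were -7.85, -0.59 and -0.38 for Psmb8, Psmb9 and Psmb10, each with an exact two-sided permutation p = 0.1, the smallest possible (0.15 adjusted).

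**Figure D4:**
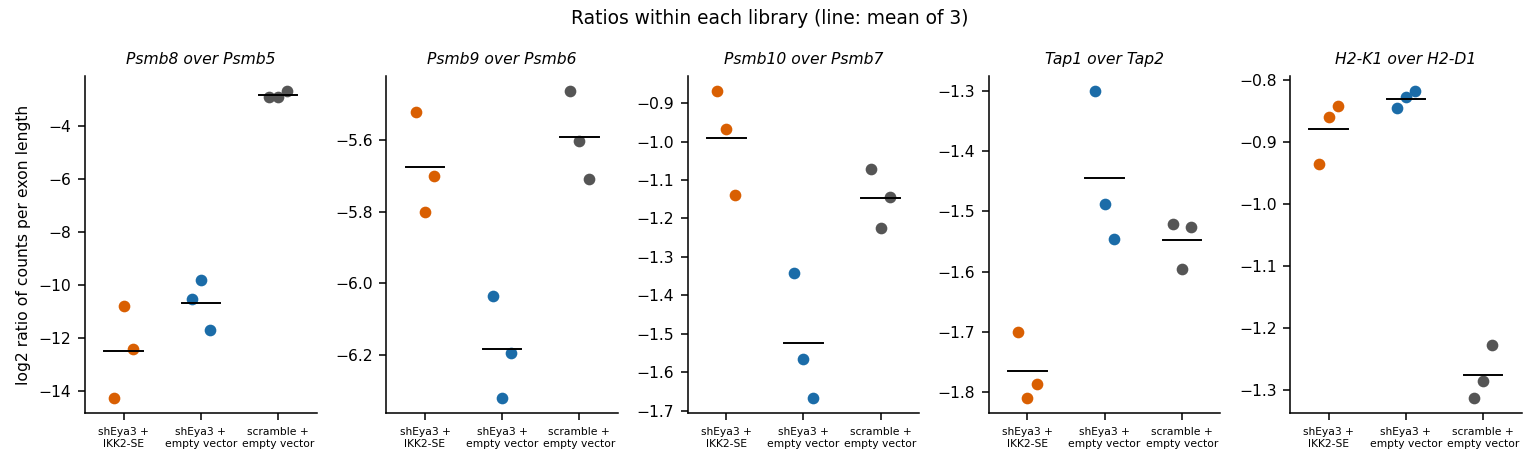
Log2 ratio per exon length within each library for 5 gene pairs, with 3 points per group and a line at their mean; the vertical axes differ between panels. Psmb8 over Psmb5 averages -12.48 in add-back, -10.67 in knockdown and -2.82 in scramble libraries, and the other ratios differ by less than 0.6 between groups.

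Nlrc5 (chromosome 8, 94434356 to 94527272, plus strand) encodes the activator of class I genes and was near the limit of detection. It was read 6, 5 and 6 times in add-back libraries, 2, 3 and 0 times in knockdown libraries and 8, 4 and 16 times in scramble libraries. Knockdown libraries were the lowest without overlap, and scramble libraries ranged around the add-back ones. Summed and scaled, the knockdown level was 0.161 of the scramble level (95% interval 0.0486 to 0.423) and the add-back level 3.74 times the knockdown level (1.32 to 13.0), with counting error only. When the filter on low counts was dropped, the knockdown difference was -2.50 ± 0.93 (edgeR adjusted p = 0.0225) and the add-back difference against knockdown 1.80 ± 0.96 (0.376).

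Other genes of the pathway were counted from lists, to be read against the shares of all tested genes. Of all tested genes, 27.7% rose and 29.9% fell in knockdown against scramble cells. In add-back against knockdown cells 5.61% rose and 4.82% fell. Of 18 tested class I and class I-like chains, 3 rose and 3 fell in knockdown against scramble cells (median -0.023), and 1 rose and none fell in add-back against knockdown cells (median 0.098). The gene that rose in the second comparison was Hfe (0.24 ± 0.07, edgeR adjusted p = 0.0268). That call was lost in several fits that left out 1 library, such as add-back replicate 1 (0.109). Cd1d1, which presents lipids to NKT cells, averaged 0.194 CPM in add-back, 0.124 CPM in knockdown and 5.60 CPM in scramble cells and fell by 5.48 ± 0.23 in knockdown against scramble cells (edgeR adjusted p = 5.46e-12). H2-Q4, a non-classical chain, averaged 180 CPM in add-back, 170 CPM in knockdown and 218 CPM in scramble cells and fell by 0.36 ± 0.04 (edgeR adjusted p = 6.45e-07), whereas H2-M3 rose by 0.35 ± 0.06 (edgeR adjusted p = 7.63e-05).

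Of the 17 loading partners and trimming enzymes, 8 rose and 5 fell in knockdown against scramble cells (median 0.052), and 3 rose and 1 fell in add-back against knockdown cells (median -0.037). Among all tested genes, 57.5% and 10.4% were called in these comparisons. In the second, Calr (higher, edgeR adjusted p = 0.0444) and Lnpep (lower, 0.0486) stood near the threshold. Both calls were lost in several alternative fits, such as that without knockdown replicate 1 (0.164 and 0.223). DESeq2 called 2 of the 17 lower and limma voom 0. Tapbpl, a tapasin relative that edits peptides, averaged 9.94 CPM in add-back, 7.29 CPM in knockdown and 13.4 CPM in scramble cells, with -0.88 ± 0.08 in knockdown against scramble (edgeR adjusted p = 4.61e-08) and 0.45 ± 0.08 in add-back against knockdown cells (0.00101). Erap1, which trims peptides in the endoplasmic reticulum, averaged 35.8 CPM in add-back, 27.1 CPM in knockdown and 37.7 CPM in scramble cells, with -0.48 ± 0.05 (edgeR adjusted p = 1.44e-07) and 0.40 ± 0.05 (1.71e-05). Pdia3, a partner of tapasin, rose by 0.45 ± 0.03 (edgeR adjusted p = 5.34e-09) and the cytosolic peptidase Thop1 fell by 0.91 ± 0.04 (2.03e-12) in knockdown against scramble cells.

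Of the 14 genes of the constitutive proteasome core, 3 rose and 4 fell in knockdown against scramble cells, and none was called in add-back against knockdown cells by edgeR (1 lower at an unadjusted p under 0.05, and 1 lower by DESeq2). The shares of all tested genes called in these comparisons were 57.5% and 10.4%. Of the 10 activator and assembly genes, 1 rose and 5 fell in the first comparison, and 2 rose and none fell in the second. Those 2 were the subunits of the interferon-inducible activator of the proteasome: Psme2 with 0.27 ± 0.07 (edgeR adjusted p = 0.0317) and Psme1 with 0.12 ± 0.04 (0.0494). Limma voom called only Psme2. The Psme2 call was lost without add-back replicate 1 (edgeR adjusted p = 0.109) and without knockdown replicate 2 (0.131) or 3 (0.112), and the Psme1 call under 7 of the 9 fits that left out 1 library (0.0662 to 0.168). Psme2 averaged 60.5 CPM in add-back, 50.1 CPM in knockdown and 71.8 CPM in scramble cells, and fell by 0.52 ± 0.07 in knockdown against scramble cells (edgeR adjusted p = 2.79e-05).

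Of 30 tested regulators of class I transcription, 6 rose and 12 fell in knockdown against scramble cells (median -0.046), and 13 rose and 2 fell in add-back against knockdown cells (median 0.13). Among all tested genes, 57.5% were called in the first of these comparisons and 10.4% in the second. Irf1, an interferon-induced activator of these genes, averaged 62.8 CPM in add-back, 53.2 CPM in knockdown and 82.3 CPM in scramble cells, with -0.63 ± 0.04 in knockdown against scramble cells (edgeR adjusted p = 1.71e-09) and 0.24 ± 0.04 in add-back against knockdown cells (0.00117). Nfkb1, an NF-kB subunit, averaged 146 CPM in add-back, 98.4 CPM in knockdown and 94.1 CPM in scramble cells and rose by 0.56 ± 0.04 in add-back against knockdown cells (edgeR adjusted p = 3.03e-08). Relb, another subunit, differed by -0.95 ± 0.06 in knockdown against scramble cells (edgeR adjusted p = 6.55e-10) and by 0.27 ± 0.06 in add-back against knockdown cells (0.00624), and Rela fell by 0.43 ± 0.04 in knockdown against scramble cells (1.52e-07) with no call in add-back against knockdown cells (0.615). The interferon-gamma receptor genes Ifngr1 and Ifngr2 fell by 0.31 ± 0.05 (edgeR adjusted p = 0.000105) and 0.91 ± 0.05 (6.49e-11) in knockdown against scramble cells. In add-back against knockdown cells they rose by 0.52 ± 0.05 (5.39e-06) and 0.29 ± 0.05 (0.000597) by edgeR. Against scramble cells, add-back Ifngr1 was higher by 0.21 ± 0.05 (0.00257) and Ifngr2 lower by 0.62 ± 0.05 (7.48e-09). Nfya rose by 0.74 ± 0.04 in knockdown against scramble cells (edgeR adjusted p = 1.15e-10). Rfx5, which binds class I promoters, rose by 0.22 ± 0.07 in knockdown against scramble cells (edgeR adjusted p = 0.0128), a call lost without knockdown replicate 2 (0.0589) or scramble replicate 2 (0.0572). The other Rfx and Nfy genes of the list went both ways in that comparison. Rfxank fell by 0.61 ± 0.10 (edgeR adjusted p = 7.76e-05) and Nfyb by 0.31 ± 0.04 (1.05e-05). Rfxap rose by 0.24 ± 0.06 (edgeR adjusted p = 0.00142) and Nfyc by 0.14 ± 0.04 (0.0119).

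Of 7 tested class II pathway genes, 2 fell and none rose in knockdown against scramble cells (median -0.42), where 57.5% of all tested genes were called. In add-back against knockdown cells 1 rose and none fell (median -0.032), against 10.4% of all tested genes called. H2-Ab1, H2-Eb1, H2-DMb1, H2-DMb2 and H2-Oa were under 1 CPM in every library, so these medians rest mostly on genes with few counts. Cd74, the class II invariant chain, averaged 1.27 CPM in add-back, 0.740 CPM in knockdown and 16.6 CPM in scramble cells, and fell by 4.48 ± 0.17 in knockdown against scramble cells (edgeR adjusted p = 2.84e-12). It rose by 0.78 ± 0.22 in add-back against knockdown cells (edgeR adjusted p = 0.0328), with overlapping libraries, and did not pass by limma voom (adjusted p = 0.142).

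**Figure D5:**
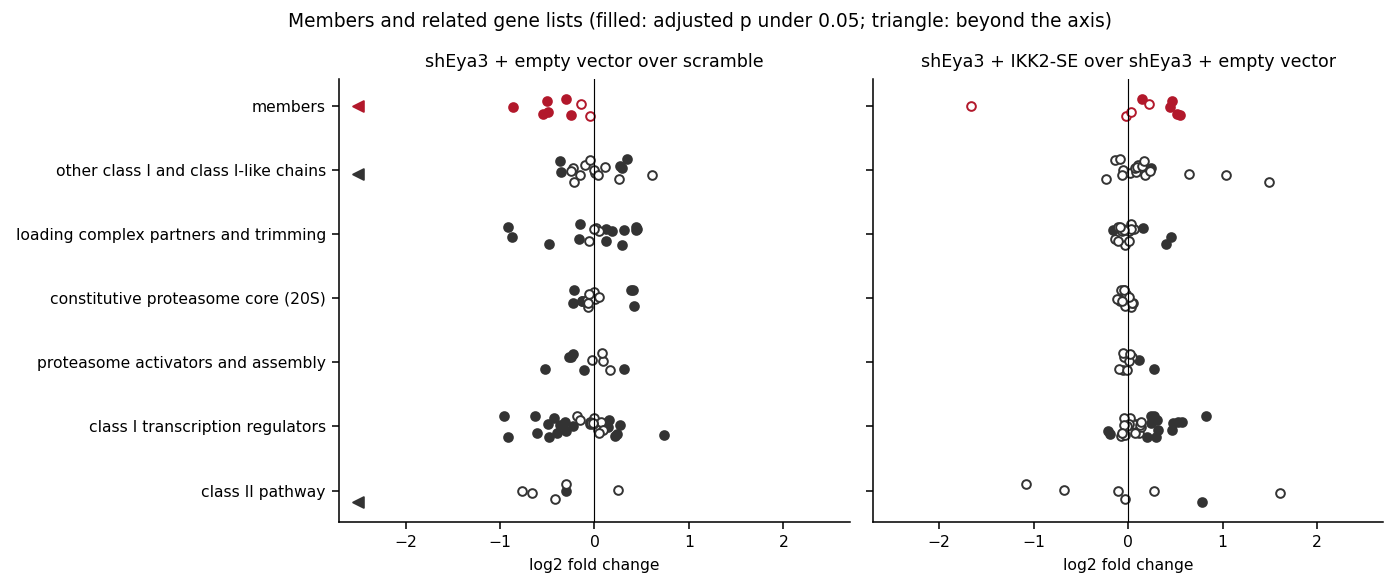
Log2 fold change of each tested gene (points) for the members and the 6 lists of pathway genes in 2 comparisons, filled where the adjusted p is under 0.05, with a triangle for a gene beyond the axis (Psmb8, Cd1d1 and Cd74 on the left). The medians of the members are -0.50 in knockdown against scramble and 0.22 in add-back against knockdown cells.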

How the data were processed

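Messenger RNA of 66cl4 cells was sequenced in 9 libraries. The deposited values are raw counts, 1 whole number per gene symbol and library, and the authors applied no normalization, as the whole-number values show. STAR, FastQC and MultiQC with the mm10 build are named, per the submitters' processing notes. The sources used here name no counter, annotation or strand setting, so antisense, overlapping and near-identical genes may share reads. Columns for the Eya3 hairpin carry KD3 where the titles say KD2, and were matched on arm and replicate number, so which hairpin was used is not settled. The labels name no batch.

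Genes were kept by edgeR's filterByExpr (minimum count 10, minimum total 15), which left 16766. Counts were TMM-scaled and tested with edgeR 4.0.16 (R 4.3.3), by robust quasi-likelihood fits over all 9 libraries with group as the term, 6 residual degrees of freedom and Benjamini-Hochberg adjustment over all tested genes. SE is the fold change over the square root of F. Replicates differed by more than sampling noise (chi-square per degree of freedom 3.62 to 18.8), so none was merged. Positions and exon lengths came from GENCODE M21 (GRCm38/mm10), and upstream sequences from RefSeq (GRCm38.p6). Ratios within a library added 0.5 to each count and used an exact permutation test. The fits were tested on simulated data. Intervals cover counting error only.

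The members and lists were chosen with earlier results of these data known. Named genes are the members, 9 fixed genes, the 4 lowest adjusted p per list and comparison, and tested genes beside Psmb8. Zbtb22, Gm20496, Krt5, Krt8, Krt14, Krt18, Krt19, Epcam, Cdh1, Esr1, Erbb2, Pgr, Vim, Col1a1, Col3a1, Pdgfra, Pdgfrb, Lyz2, Cdh5, Pecam1 and Kdr were named for overlap or as markers. Rfxank, Rfxap and Nfyc were named beside Rfx5 and Nfya, and their lost calls were not listed. Alternatives were other scalings (RLE, library totals), tools (DESeq2 1.42.0, limma 3.58.1), filters, fits on 2 groups only, a replicate block and leaving out each library. Lost calls of the genes named beside the members were listed as an alternative chosen after seeing the data.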

Additional observations from a re-analysis of the deposited data

How the results depend on the processing

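The count of genes called in add-back against knockdown cells was 1749, and 2678 with the replicate number as a block (members called: 6 with the block, 5 without). Same-numbered libraries correlated from -0.011 to 0.123 in their deviations from the group means, and differently numbered ones from -0.081 to 0.046. Replicate 1 was the highest library of each group for H2-D1, Tap1, Tap2, Psmb9 and Psmb10, and not for the other members. Whether the numbers pair the libraries was not tested and is not settled by the labels. Without 1 library the counts ran from 8799 to 9898 in knockdown against scramble cells (9643 with all), 1168 to 1800 in add-back against knockdown cells and 8500 to 9511 in add-back against scramble cells (9352 with all). Scaled by library totals, 65.9% of the calls in add-back against knockdown cells were higher, against 53.8% with TMM. With 3 added to each count, the log2 difference of Psmb8 over Psmb5 in add-back against scramble cells was -8.12, against -9.66 with 0.5.

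The results that changed sign were uncalled and near 0. H2-K1 in add-back against knockdown cells was 0.0089 with library totals, and ran from -0.050 to 0.016 without 1 library; H2-D1 in the same comparison ran from -0.030 to 0.084. In add-back against scramble cells Psmb9 ran from -0.077 to 0.053 and Psmb10 from -0.083 to 0.012. With the block, Tap1 passed in add-back against knockdown cells (edgeR adjusted p = 0.0352) and H2-K1 in add-back against scramble cells (edgeR adjusted p = 0.0416). The cause of these changes was not tested. Depth limits Nlrc5, and Psmb8 outside the scramble libraries.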
